A study of Mus musculus with 4 samples.

Results

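In all, 9 genes that encode surface receptors and markers of haematopoietic stem cells were examined in a map of PPP2CA along the mouse genome: Kit, Flt3, Cxcr4, Tek, Procr, Slamf1, Cd48, Ly6a and Cd34. They were taken by name, 9 of 21775 protein-coding genes placed on GRCm38, with earlier results of these data known. All peaks that overlapped the gene body or the 1 kb on either side of it were collected. Peaks reaching to within 1 kb of where a gene begins or ends (boundary peaks) were kept apart from those lying wholly inside the gene. The material was primary haematopoietic stem cells, isolated from the marrow of mice wild type for Ppp2ca. Their age, sex and strain are not stated in the labels. The assay was CUT&Tag, which uses an antibody to bring a transposase to its target, so that the DNA close by is cut and tagged for sequencing. An antibody to PPP2CA, the catalytic subunit of the phosphatase PP2A, gave 2 libraries (PPP2CA 1 and PPP2CA 2), and control immunoglobulin gave the other 2 (IgG 1 and IgG 2). All 4 share the cell type and the genotype, and the labels do not say whether they came from separate animals.

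These proteins define and serve the stem cell. KIT is the receptor tyrosine kinase for stem cell factor, FLT3 that for FLT3 ligand and TEK (TIE2) that for the angiopoietins, while CXCR4 is the G protein-coupled receptor by which CXCL12 holds stem cells in the marrow. PROCR (the endothelial protein C receptor), SLAMF1 (CD150), CD48, LY6A (Sca-1) and the sialomucin CD34 are used with KIT to sort stem and progenitor cells. In adult mice KIT, LY6A, SLAMF1 and PROCR mark stem cells, FLT3 and CD48 mark progenitors that have left that state, and CD34 is low on the most quiescent stem cells. A peak in these data is a place marked with the antibody. It is not a measure of the gene's expression, and the antibody's specificity was not tested.

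A PPP2CA region, meaning a stretch with a peak in both PPP2CA libraries and none in either IgG library, lay at the gene start of Kit, Flt3 and Cxcr4. Flt3 carried 3 further regions inside the gene. The other 6 genes had no region, although Procr had a peak in PPP2CA 1. This made 3 of 9 genes with a boundary region, where 39.5% of all protein-coding genes had one, 1 of 9 with a region inside the gene (10.7% of all genes) and 3 of 9 with either (45.3%). The genes were chosen with earlier results of these data known, so these counts are a description and no test was made of them. The 9 genes held 8 peaks in PPP2CA 1, 6 in PPP2CA 2 and 0 in each IgG library. In the whole lists PPP2CA 1 and 2 held 16811 and 17686 peaks and IgG 1 and 2 held 561 and 310.

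The bases before the gene start are shown for the 3 genes with a region there, and for Cd34 and Slamf1 as examples without one. The sequences are RefSeq's, on GRCm38.p6, and 8 of the 9 genes had an entry, Ly6a being the gene without. Each runs 5′ to 3′ along the gene's own strand and ends at the base before the start in RefSeq's promoter table, at chr5:75574737-75574986 (plus strand) for Kit, chr5:147400490-147400739 (minus strand) for Flt3 and chr1:128592300-128592549 (minus strand) for Cxcr4. Those of the examples are chr1:194938571-194938820 and chr1:171766882-171767131, both on the plus strand. The start in the promoter table is the outer end of the gene in the gene table for Kit, Flt3, Cxcr4 and Cd34. It lies 1 bp further in for Slamf1, 92 bp for Procr, 203 bp for Tek and 747 bp for Cd48. Capitals mark CG dinucleotides, the sites of DNA methylation.
Kit: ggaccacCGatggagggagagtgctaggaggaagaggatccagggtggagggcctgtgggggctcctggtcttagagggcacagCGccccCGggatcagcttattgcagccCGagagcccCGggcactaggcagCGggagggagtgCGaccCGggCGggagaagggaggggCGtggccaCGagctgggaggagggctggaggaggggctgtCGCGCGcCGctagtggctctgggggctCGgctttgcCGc
Flt3: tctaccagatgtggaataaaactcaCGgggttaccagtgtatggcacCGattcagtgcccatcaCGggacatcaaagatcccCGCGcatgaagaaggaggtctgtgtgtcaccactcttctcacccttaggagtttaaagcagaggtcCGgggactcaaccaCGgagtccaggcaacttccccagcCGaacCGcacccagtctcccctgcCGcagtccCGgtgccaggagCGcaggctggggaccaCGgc
Cxcr4: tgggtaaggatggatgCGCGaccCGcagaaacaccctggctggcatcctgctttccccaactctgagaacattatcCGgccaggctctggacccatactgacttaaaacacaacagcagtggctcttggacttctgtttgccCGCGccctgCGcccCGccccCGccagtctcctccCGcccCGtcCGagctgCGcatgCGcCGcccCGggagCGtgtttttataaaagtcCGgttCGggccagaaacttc
Cd34: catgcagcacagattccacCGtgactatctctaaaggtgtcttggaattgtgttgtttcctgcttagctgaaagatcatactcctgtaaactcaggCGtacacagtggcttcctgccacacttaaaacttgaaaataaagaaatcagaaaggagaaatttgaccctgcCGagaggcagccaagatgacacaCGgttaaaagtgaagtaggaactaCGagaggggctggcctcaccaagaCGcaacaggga
Slamf1: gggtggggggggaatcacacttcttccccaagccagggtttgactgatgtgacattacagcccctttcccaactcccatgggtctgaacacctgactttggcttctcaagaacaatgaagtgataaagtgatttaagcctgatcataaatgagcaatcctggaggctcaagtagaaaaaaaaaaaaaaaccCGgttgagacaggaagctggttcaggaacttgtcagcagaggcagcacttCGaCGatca

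CG dinucleotides were more frequent in the promoters of the 3 genes with a region than in most of the others. Over the full RefSeq promoter of 300 bases, which adds 50 bases after the start, there were 20 in Kit, 20 in Cxcr4 and 18 in Flt3. Of all promoters, 63.9% had fewer than Kit and Cxcr4, and 59.4% had fewer than Flt3. Procr, with its peak in 1 library, had 13. Cd34 and Cd48 had 7 each, Slamf1 4 and Tek 3. The genes with and without a region thus did not overlap in this count. In the 250 bases before the start alone they met, since Flt3 and Procr both had 13. Of all 17491 protein-coding promoters in the table, 40.5% had a PPP2CA region within 1 kb of the start given there. That share was 3% of promoters with 0 to 4 CG, 18.6% with 5 to 9, 45% with 10 to 14, 60.8% with 15 to 19 and 70.6% with 20 to 29. With 30 to 65 CG it was 72.7%. The median was 23 CG in promoters with a region and 5 in those without. The receptor and marker genes followed the order of all promoters, in which CG content moves with many other features of a gene. What part base composition has in the presence of a region was not tested.

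**Figure D1:**
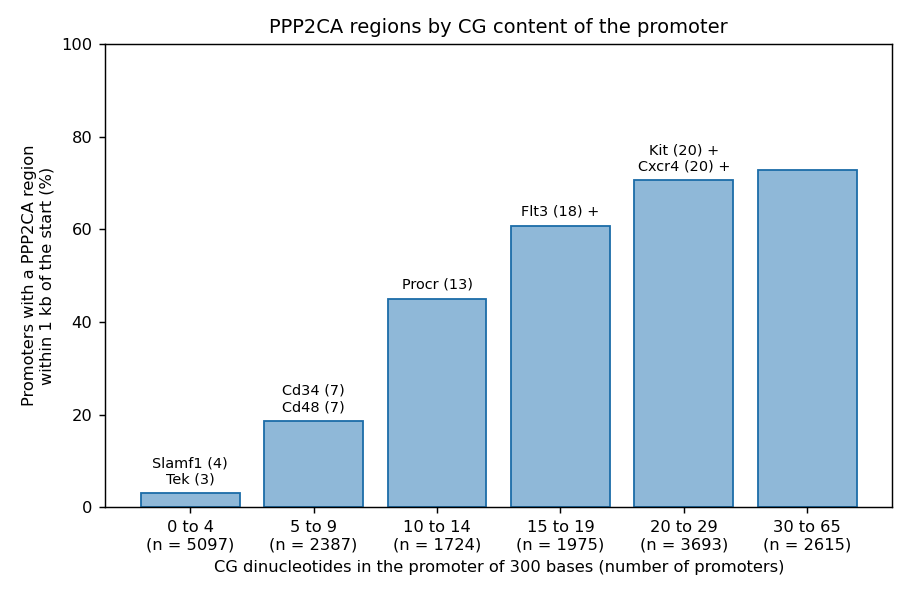
Share of protein-coding promoters with a PPP2CA region within 1 kb of the start (vertical axis, percent) by the number of CG dinucleotides in 300 bases (horizontal axis, with the number of promoters in each class). Above the bars stand the genes of each class with their own CG count, those with a region being followed by a plus sign: Kit, Cxcr4 and Flt3 lie in classes of 60.8% and 70.6%, Slamf1 and Tek in the class of 3%.

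Short motifs were counted in the same 8 promoters. The letters GGAA, the core of ETS factor sites, were found on either strand in all 8 promoters, and in 95.8% of all promoters. Kit and Cxcr4 had 1 each, Flt3 and Tek 2 each, Procr and Cd48 4 each, Cd34 5 and Slamf1 6. The genes with a region thus had the lower counts, meeting the others at Flt3 and Tek. Whether all promoters follow this order was not tested. GGGCGG, the GC box, which itself holds a CG, occurred 3 times in Cxcr4 and 1 time in Kit, in none of the other 6, and in 46.3% of all promoters. GATA was found 2 times each in Cd34 and Tek and 1 time each in Slamf1 and Cxcr4 (54% of all). CAGCTG, an E-box, was found in Procr and Slamf1 (15.1%), TGTGGT, a RUNX core, in Cd48 alone (15.1%), and TATAAA 2 times in Cxcr4 alone (13.3%). These 2 matches overlap in the same stretch, 1 on each strand. CCAAT was in none of the 8 (39.2% of all). A match of letters is not a bound site, and a missing one says nothing of the factor.

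Kit carried 1 region, over its start. The gene (gene ID 16590) lies on chromosome 5 at 75574987 to 75656722 on the plus strand, and the region ran from 75574521 to 75575979, with no other annotated gene in it. Its summit held 38 fragments in PPP2CA 1 and 46 in PPP2CA 2, at the same base in both, 47 bp after the gene start. The height over the local background, the authors' fold, was 7.02 in both. By −log10 q the peak was number 3871 of the PPP2CA 1 list and number 3425 of the PPP2CA 2 list, in the top 23% and 19.4%. The region of 1459 bp was wider than 88.2% of the regions at gene boundaries. A second Kit peak, of 8 fragments, lay 49.1 kb inside the gene in PPP2CA 1 and was not called in PPP2CA 2. Of PPP2CA 1 peaks of 5 to 9 fragments, 28.7% (95% exact interval 27.1 to 30.3) overlapped a peak of PPP2CA 2. Outside the 1 kb rule the nearest region to Kit was 74 kb beyond its end (30 and 27 fragments).

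Flt3 was the gene with the most regions. It lies on chromosome 5 at 147330741 to 147400489 on the minus strand (gene ID 14255). The region at its start, at 147399879 to 147400851, also overlaps the long noncoding RNA gene Gm26597. Its summit held 55 and 70 fragments, again at the same base in both libraries, 90 bp after the gene start, with a fold of 7.09 and 7.56. It was the best ranked of the 6 regions found at the 9 genes, with 22.6% of all boundary regions ranked better, against 32.5% for Cxcr4 and 33.9% for Kit.

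The 3 regions inside Flt3 were lower than the one at its start in both libraries. The region at 147392139 to 147393065, 7.59 and 7.82 kb after the start, held 11 and 14 fragments, with summits 230 bp apart. By −log10 q its peaks were number 16304 of 16811 in PPP2CA 1 and number 13496 of 17686 in PPP2CA 2. Of all regions, 98.4% were ranked better than this one. The region at 147366161 to 147366680, 34.1 kb after the start, held 16 and 28 fragments. The region at 147340909 to 147341681, 59.2 kb after the start, held 20 and 22 fragments. Among genes of 20 to 80 kb, the length class of Flt3 (69.7 kb), 15.4% had a region inside and 0.611%, 42 of 6872 genes, had 3 or more. Flt3 reached 3 only with the low-ranked region nearest its start. Of the 3, only the farthest kept its place when 20 fragments were required in both libraries. Whether they lie in exons or introns was not analysed here.

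The flanks of Flt3 were also marked. Beyond its start, a peak at the lncRNA gene D5Ertd605e began 17.6 and 17.5 kb away, with 35 and 31 fragments. Overlapping the neighbouring gene Pan3 (poly(A) nuclease subunit), 29.4 and 29.3 kb away, there were peaks of 52 and 56 fragments. PPP2CA 1 had a further peak there, of 42 fragments, 30.4 kb away. Beyond its end, 6.91 kb away and within 1 kb of Urad, a region held 11 and 19 fragments.

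Cxcr4 carried the widest region of the 3. The gene (gene ID 12767) is only 4.1 kb long, on chromosome 1 at 128588199 to 128592299 on the minus strand. Its region, at 128590792 to 128593217, measured 2426 bp, wider than 99.4% of boundary regions, whose median width was 1004 bp, and covered 36.8% of the gene body. The summit held 60 and 61 fragments and lay before the gene start, at -163 bp in PPP2CA 1 and -76 bp in PPP2CA 2, where a minus sign means before the start. The fold was 5.67 and 4.98, lower than at Kit although the summit was higher. The local background was 9.77 and 11.4 fragments at Cxcr4 and 4.56 and 5.7 at Kit. A further region 22.4 kb before the gene start, in no annotated gene, held 21 and 24 fragments.

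These summits lay about where those of other genes did. Over the 6809 genes with a region within 1 kb of a start of known strand, the summit lay at a median of 71 and 75 bp after the start in PPP2CA 1 and 2. Its quartiles were at -78 and 243 bp in PPP2CA 1 and at -81 and 243 bp in PPP2CA 2. Kit, at 47 bp, and Flt3, at 90 bp, fell within these quartiles in both libraries. Cxcr4 fell within them in PPP2CA 2 and outside them in PPP2CA 1. All 3 boundary regions were at starts and none at ends. Here starts and ends are the outer ends of the gene table, which differ from the starts of the promoter table at some genes. By them 38.9% of all genes with a known strand had a region at the start and 4.4% at the end.

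**Figure D2:**
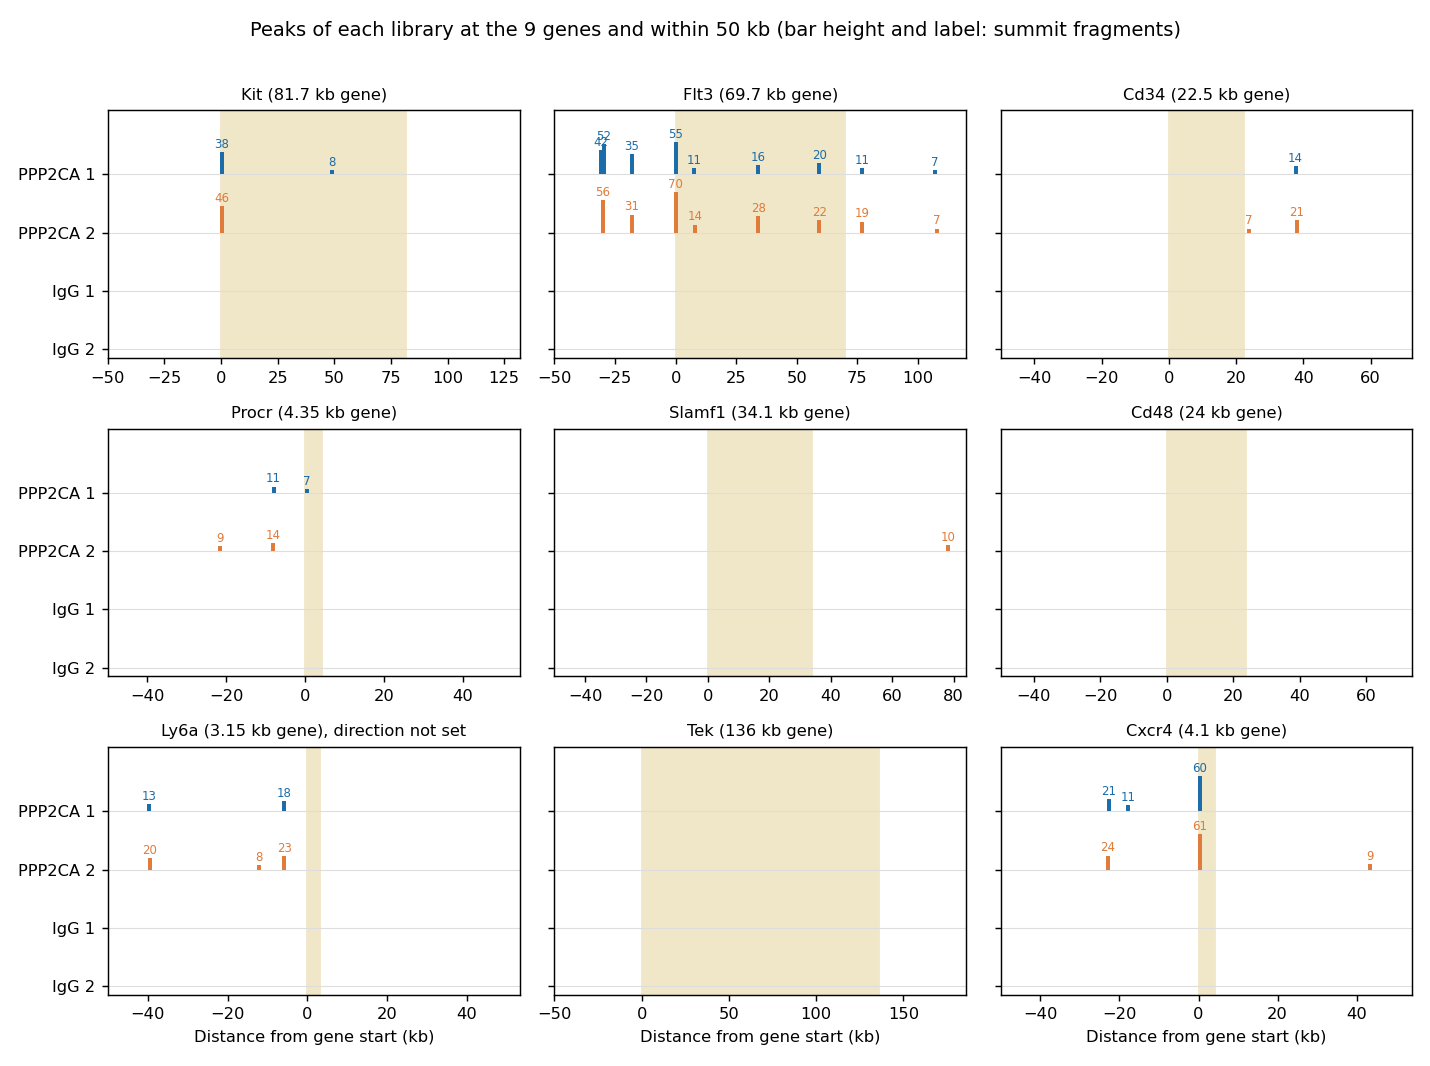
Peaks of the 4 libraries (rows) at each of the 9 genes and within 50 kb, by distance from the gene start in kb along the direction of the gene (for Ly6a along the chromosome), with the gene body shaded. Bars and their labels give the fragments at each summit: both PPP2CA libraries have a bar at the start of Kit (38 and 46), Flt3 (55 and 70) and Cxcr4 (60 and 61), and both IgG rows are empty at all 9.

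No difference in height beyond counting error was found between the PPP2CA libraries at these genes. At the 5 places where summits of both libraries lay within 100 bp, the ratio of PPP2CA 2 to PPP2CA 1, scaled by the genome-wide backgrounds of 0.8 and 0.784 fragments, was 1.19 at Kit (95% exact interval 0.755 to 1.87). It was 1.25 at the Flt3 start (0.863 to 1.81) and 0.996 at Cxcr4 (0.686 to 1.45). At the Flt3 places 59.2 and 34.1 kb after the start it was 1.08 (0.561 to 2.08) and 1.71 (0.896 to 3.39). None passed an exact two-sided binomial test with Benjamini-Hochberg adjustment over all 6930 matched summits (adjusted p = 1 for all 5, lowest unadjusted p = 0.0969). By that test 0.0433% of matched summits, 3 in number, differed. The chi-square over its degrees of freedom was 0.888 over all matched summits. These are only the summits called in both libraries at nearly the same base. Peaks of 1 library alone, such as those at Procr and 49.1 kb inside Kit, are not among them, so the comparison does not show how far the libraries agree as a whole. Each library is therefore shown on its own, without a mean or SD. The intervals cover counting error only, and up to a 1.87-fold difference at Kit remains within them.

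The missing IgG peak at Kit, Flt3 and Cxcr4 says little, because the IgG libraries are shallow. Their genome-wide background was 0.0839 and 0.0833 fragments, and the median summit held 4 fragments against 18 in the PPP2CA libraries. A signal and local background equal to those of PPP2CA 1 would have given 4.07 and 4.04 fragments at the Kit start in IgG 1 and 2, where 6 would have been needed for the lowest −log10 p in those lists. At the Flt3 start it would have given 5.89 and 5.84 fragments, with 7 needed, and at Cxcr4 6.42 and 6.38, with 8 needed. Scaled from PPP2CA 2, the Flt3 start alone would have reached the 7 needed in IgG 1 (7.34 fragments), and not the 8 needed in IgG 2 (7.29). At the places inside Flt3 an equal signal would have given 1.17 to 2.94 fragments where 5 were needed. A control signal as high as that of PPP2CA could therefore have gone uncalled at nearly all of these places, and these lists cannot tell the antibodies apart there. Of all protein-coding genes 2.08% had an IgG peak of either library in the gene or within 1 kb. An exact permutation test of 2 against 2 libraries, two-sided, reaches p = 0.333 at best, and none was made.

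Procr lay at the edge of detection. The gene (gene ID 19124, chromosome 2 at 155751125 to 155755478) had a PPP2CA 1 peak of 7 fragments and fold 3.56, 516 bp after its start, which ranked number 16309 of 16811 in that list. PPP2CA 2 had no peak there. Such a boundary peak in PPP2CA 1 without one in PPP2CA 2 occurred at 3.72% of protein-coding genes. Before the gene, 7.6 kb away and in no annotated gene, a region with 11 and 14 fragments was found in both libraries.

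Cd34 had no region by the 1 kb rule, nor with windows of 2 kb or 5 kb. Its gene (gene ID 12490, chromosome 1 at 194938821 to 194961292) held no peak, while PPP2CA 2 had a peak of 7 fragments that began 1123 bp beyond the gene end and PPP2CA 1 had none there. A region in both libraries lay 15 kb beyond the end, at 194976323 to 194977405 over the lncRNA gene Gm16897, with 14 and 21 fragments. Ly6a (gene ID 110454, chromosome 15 at 74994877 to 74998031) held no peak either. The nearest region, with 18 and 23 fragments, lay 5.22 kb towards lower coordinates at 74988474 to 74989660, overlapping the lncRNA gene Gm28068 and the pseudogene Gm8000. Ly6 genes are similar to each other, and the treatment of reads that map to more than 1 place is not stated in the labels.

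Slamf1, Cd48 and Tek stood in stretches with hardly any PPP2CA signal. Slamf1 and Cd48 are neighbours on chromosome 1, at 171767131 to 171801184 and 171681245 to 171705258, and the nearest region to both was at Cd244a, 208 and 122 kb away. Within 50 kb of Slamf1 there was 1 PPP2CA 2 peak of 10 fragments overlapping Cd84, 44 kb away. Within 50 kb of Cd48 and of Tek no library had a peak. Tek is the longest of the genes at 136 kb (chromosome 4 at 94739086 to 94874976), and its nearest region, at Mysm1, was 104 kb away. Kit too had no region outside the gene within 50 kb. Of protein-coding genes over 80 kb, the class of Tek and Kit, 48.3% had no region in the gene or within 1 kb, so the lack of one in Tek is common for its length. That share was 44.4% for genes of 20 to 80 kb, the class of Slamf1, Cd48 and Cd34. For genes under 20 kb, the class of Procr and Ly6a, it was 62.4%. Over all protein-coding genes 34.1% had no region in the gene or within 50 kb. Kit, with the region at its start, is not among these. The lowest summit called in either PPP2CA library held 5 fragments, so lower signal at these genes would not appear in the lists.

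The ligands of the receptors were marked at 2 of 5 genes, again beside 39.5% of all genes. Flt3l, the FLT3 ligand, had a boundary region of 29 and 28 fragments, and Kitl, the KIT ligand, one of 6 and 9 fragments, near the lowest called. Angpt1, Angpt2 and Cxcl12 had none. The receptor tyrosine kinases closest to KIT, FLT3 and TEK (Csf1r, Pdgfra, Pdgfrb, Kdr, Flt1, Flt4 and Tie1) had a boundary region at 1 of 7, Kdr, with 9 and 9 fragments. In the SLAM family locus Cd244a alone of 9 genes had a boundary region (16 and 18 fragments), and in the Ly6 locus Ly6e alone of 10 (13 and 20 fragments). Each of these summits was lower than those at the starts of Kit, Flt3 and Cxcr4.

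Genes that act below these receptors were marked at 30 of 34, and other surface receptors and markers of stem and progenitor cells at 22 of 34, beside 39.5% of all protein-coding genes. Among the former the best ranked were Stat3, a transcription factor of cytokine signalling (208 and 231 fragments), Sh2b3, an adaptor that restrains KIT and JAK2 signalling (148 and 175), and Grb2, the adaptor that links receptor kinases to RAS (71 and 83). The 4 genes of that list without a boundary region, picked out after their values were seen, were Ptpn6, Pik3cd, Src and Stat5b. Of these, Ptpn6 and Src had 2 regions each inside the gene and Pik3cd had 1. Among the other surface receptors the best ranked were Csf2ra (118 and 133), Ifngr1 (75 and 89) and Ifnar1 (78 and 65), receptor chains for GM-CSF and for type II and type I interferon. The lists hold different kinds of gene, were not matched on base composition or expression, and the difference between them and the 9 genes was not tested.

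**Figure D3:**
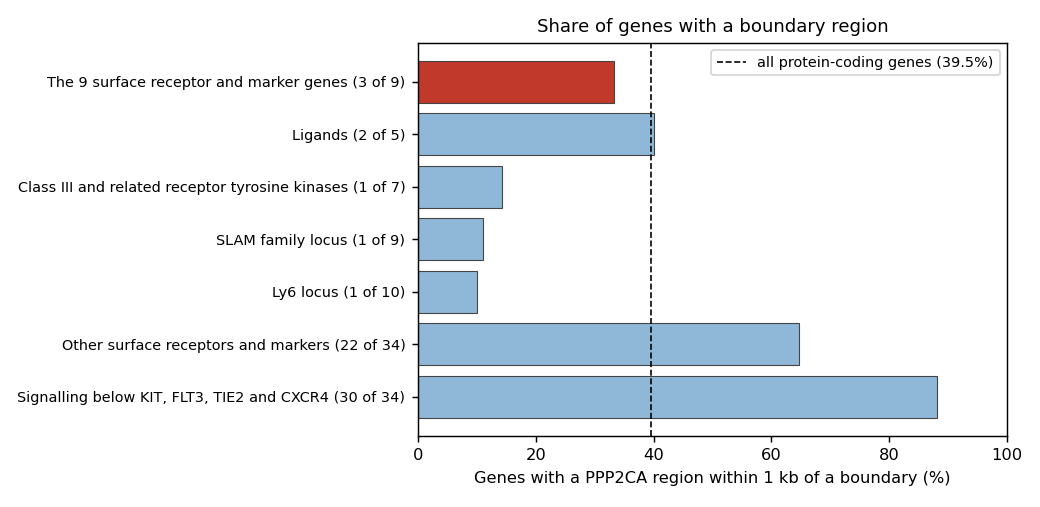
Share of genes with a PPP2CA region within 1 kb of a gene boundary (horizontal axis, percent) for the 9 surface receptor and marker genes (red) and the 6 lists set beside them (blue), with the number of genes behind each bar. The dashed line is the 39.5% of all protein-coding genes: the signalling list (30 of 34) lies above it and the SLAM and Ly6 loci (1 of 9 and 1 of 10) below it.

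Boundary regions at defining markers of marrow cells are to be read beside the 39.5% of all protein-coding genes. None was found at 6 B cell markers, 7 myeloid markers and 6 stromal and endothelial markers, while 1 of 6 T cell markers (Cd3d) and 3 of 8 erythroid and megakaryocyte markers (Tfrc, Klf1 and Pf4) had one. Among 14 stem cell markers, the 9 genes included, there were 5 (Flt3, Cxcr4, Kit, Mecom and Meis1), and of the pan-haematopoietic genes Lyl1, Spi1 and Runx1 but not Ptprc, 3 of 4. A region at a marker is not its expression, so these lists do not measure the purity of the cells.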

How the data were processed

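The data were 4 CUT&Tag libraries, 2 with a PPP2CA antibody and 2 with IgG, grouped by their titles. Each library has 1 deposited peak list, laid out as narrowPeak. Per the submitters' processing notes the tools included MACS2, BWA and Trimmomatic as well as HOMER, ChIPseeker and deepTools, with GRCm38 (mm10) as the build and no settings stated. The deposited lists give each peak a fold (the ratio of summit to local background), a −log10 p, a −log10 q and a score made from the q. The use of IgG as a control for peak calling is not stated in the labels, so the source of the local background is not given. Where an IgG 1 or IgG 2 summit of at least 20 fragments lay within 100 bp of a PPP2CA summit (15 and 14 places for PPP2CA 1, 13 and 16 for PPP2CA 2), the local background of the PPP2CA peak was below the IgG fragments, scaled by the genome-wide backgrounds, at every place.

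Fragments at each summit and the local background were computed from the deposited fold, read as (fragments + 1) / (background + 1), and −log10 p, read as a Poisson tail. This gave whole numbers for 100% of peaks in every list (largest relative error 9e-06). The lowest background of a list was taken as its genome-wide background, and total reads were not used here. PPP2CA peaks that shared at least 1 bp were merged, and the 12631 regions found in both libraries, less those with an IgG peak, gave 12438. Genes came from a RefSeq table of GRCm38.p6, without entries below 3 Mb on chromosomes other than Y, and strand from the RefSeq promoter table, which held 17491 of the 21775 protein-coding genes. For each gene the most upstream promoter entry was used. Rank is by −log10 q within a list, and for a region the worse of its 2 ranks. Python 3.11.15, pandas 2.3.3 and scipy 1.17.1 were used, and the computations were tested on simulated data.

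All 9 genes are named. Of each further list the 3 best-ranked genes are named, with every ligand, SLAM and Ly6 gene that has a region. The 9 genes and the lists were chosen with earlier results of these data known. Alternatives covered peak thresholds, overlap, windows and libraries left out.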

Additional observations from a re-analysis of the deposited data

How the results depend on the processing

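Kit, Flt3 and Cxcr4 were the genes with a boundary region under 12 of 13 alternatives: a −log10 q of at least 5, summits of at least 20 fragments, 50% reciprocal overlap, windows of 500 bp, 2 kb and 5 kb, summits inside the window, regions with an IgG peak kept, gene starts only, and leaving out PPP2CA 1, IgG 1 or IgG 2. Without PPP2CA replicate 2 the count was 4, with Procr added, so leaving out 1 library gave 3 to 4. The same held for regions anywhere in the gene (11 of 12 alternatives, 3 to 4). The number of genes with a region inside was 1, Flt3, in 11 of 12 alternatives and 2 without PPP2CA 2, Kit being added, a range of 1 to 2 over the libraries left out. No gene had an IgG peak within 10 kb of the gene, nor in a wider search of 50 kb. Keeping regions with an IgG peak, or leaving out an IgG library, therefore could not change any of these counts. Taking gene starts only could not change the boundary count either, since all 3 boundary regions lay at starts. The number of matched summits that differed between PPP2CA 1 and 2 was 3 to 4 under 4 alternatives, and none was at these genes. No paired analysis was possible because the counts come from no test and the IgG fragments are not known where no IgG peak was called. Low peaks were found again less often: at 5 to 9 fragments 28.7% and 21.6% of peaks of PPP2CA 1 and 2 were, and at 50 to 99 fragments 99.7% of both. The reason for this was not tested.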
